A study of Sus scrofa with 12 samples.

Results

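The nuclear pore is the channel through which proteins and RNAs pass between nucleus and cytoplasm, and the genes described here encode its structural proteins (nucleoporins), the receptors that carry cargo through it, and regulators of the small GTPase Ran. Members were taken by gene symbol: every NUP gene with a number, every KPNA, KPNB, numbered IPO, XPO and TNPO gene, and RANBP1, RANBP2, RANGAP1, RCC1, TPR, NDC1, SEH1L and AHCTF1. This gave 54 of the 31908 identifiers listed, and 42 of the 54 averaged 1 FPKM or more over all libraries and so were among the 7013 genes tested. RAN, IPO13 and POM121 also belong to the rule or to its roles, had no matched identifier, and were not analysed here.

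The samples were porcine oocytes kept in maturation culture for 0h, 22h or 46h, with 4 libraries at each time and 12 in all. The study examined how transcripts of metabolic enzymes change as oocytes resume and complete meiosis, and writes of germinal vesicle and metaphase II oocytes for the first and last times. Pre-metaphase I is given in the paper for 24h of an earlier study by its authors. In that study not every oocyte had reached the stage named for its time. All groups shared the same source and handling: cumulus-enclosed oocytes of prepubertal slaughterhouse gilts, pooled over animals, matured in a medium with follicular fluid, epidermal growth factor and gonadotropins (PMSG and HCG), and stripped of cumulus cells before lysis. The labels and the methods give 22h for the middle time whereas the series text gives 24h, and 22h is used.

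FPKM, the unit of every level below, counts fragments relative to the length of the transcript and to all fragments of the library, so it allows levels of different genes to be set side by side. The cDNA was primed with oligo-dT, so the values report RNA with a poly(A) tail. Because each library is a pool of oocytes, fewer oocytes with a transcript and less transcript per oocyte cannot be told apart. Nothing in the labels says that replicates were separate cultures, so the p-values measure the spread between these libraries, which may be technical. Read counts were not at hand, so the depth is unknown and the spread over 4 libraries is the measure of precision.

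As background, the pore is built from repeated subcomplexes: an outer ring of Y-shaped complexes, an inner ring, a central channel of proteins with phenylalanine-glycine repeats, membrane anchors, filaments on the cytoplasmic side and a basket on the nuclear side. Importins pick up cargo in the cytoplasm and release it where Ran carries GTP, exportins bind cargo together with Ran-GTP, and importin alpha proteins are adaptors that link classical nuclear localization signals to importin beta. A fully grown oocyte holds a large nucleus, the germinal vesicle, whose envelope and pores are taken apart when meiosis resumes, so at metaphase II there is no nucleus.

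Of the 11 matched oocyte markers all were detected, and 1 was called higher and 8 lower at 46h against 0h (median log2 difference -1.40). Their sum lay between 28700 and 37400 FPKM in the 0h libraries and between 31200 and 36700 in those of 46h, and the number of genes at 1 FPKM or more lay between 6939 and 7895 in the 0h libraries and between 5819 and 6076 in those of 46h. As for other cell types, 13 of 16 matched cumulus and granulosa markers were under 1 FPKM in every library, with KRT8 and KRT18 listed at 0. VCAN, an extracellular matrix gene, carried most of the cumulus list, with means of 58.3, 65 and 126 FPKM at 0h, 22h and 46h, so that the summed list lay between 46.3 and 88.8 FPKM at 0h, 55.8 and 86.1 at 22h and 118 and 143 at 46h. Of the 9 matched blood and stroma markers 7 were under 1 FPKM in every library and 4 were listed at 0, and the list summed to between 9.76 and 12.3 FPKM at 0h, 7.25 and 23.1 at 22h, and 22.9 and 25.8 at 46h, led by PECAM1. The part of these marker levels in the differences below was not tested. Replicate 4 of 0h and replicate 1 of 22h stood apart from the rest of their stages: the best Pearson correlation of log2 values with another library of the stage was 0.97 for the first and 0.967 for the second, and the counts over all members and over the larger groups are also given without both. Mitochondrially encoded genes held between 1.79% and 3.76% of total FPKM in the 0h libraries, between 8.06% and 12% in those of 22h and between 12.8% and 16.7% in those of 46h. Since FPKM is relative to the library, such a shift enters every level.

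The members differed widely in level. KPNA7 alone averaged 5317 FPKM over the 12 libraries, followed by KPNA2 with 633.7, NUP35 with 186.9, NUP37 with 174.1, NDC1 with 146 and NUP85 with 139.8 FPKM. KPNB1, the importin beta that works with importin alpha, averaged 1.714 FPKM, and 12 members averaged less than 1. Summed over all members, the level lay between 3794 and 6904 FPKM at 0h, between 5175 and 11110 at 22h and between 6541 and 9221 at 46h.

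Between 0h and 46h more members were higher than lower, whereas among all genes tested more were lower in FPKM as deposited, a direction over all genes that turned under quantile normalization (41% higher and 25.5% lower). In a limma fit of log2(FPKM + 1), a call needed an adjusted p under 0.05 together with a fold change over 1.5. At 46h against 0h, 17 of 42 members (40.5%) were called higher and 11 (26.2%) lower, beside 16.8% higher and 39.1% lower among all genes. At 22h against 0h, 8 members (19%) were higher and 3 (7.14%) lower, beside 7.84% and 18.9%. At 46h against 22h, 9 members (21.4%) were higher and 11 (26.2%) lower, beside 9.87% and 32.6%. The median log2 difference of the members was 0.21, 0.04 and 0.23 for 22h against 0h, 46h against 22h and 46h against 0h, while that of all genes was -0.00, -0.26 and -0.25. These comparisons share libraries, so their counts are not independent. Without the pair of libraries that stood apart, an alternative added after the data were seen, 7 members were higher and 5 lower at 22h against 0h, 7 higher and 12 lower at 46h against 22h, and 16 higher and 12 lower at 46h against 0h. Of all genes, 18.7% were higher and 38.3% lower at 46h against 0h in that fit. For the other comparisons no share of all genes from that fit is given, so those counts are not set against all genes. The 22h against 0h counts also changed with single libraries left out. There were 3 members higher without replicate 3 of 22h and 4 without replicate 2 of 0h. Without replicate 2 of 22h there were 4, as without replicate 4 of 22h. Without replicate 4 of 0h, 5 were lower. No share of all genes from these fits is given, so the changes are not read as particular to the members.

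**Figure D1:**
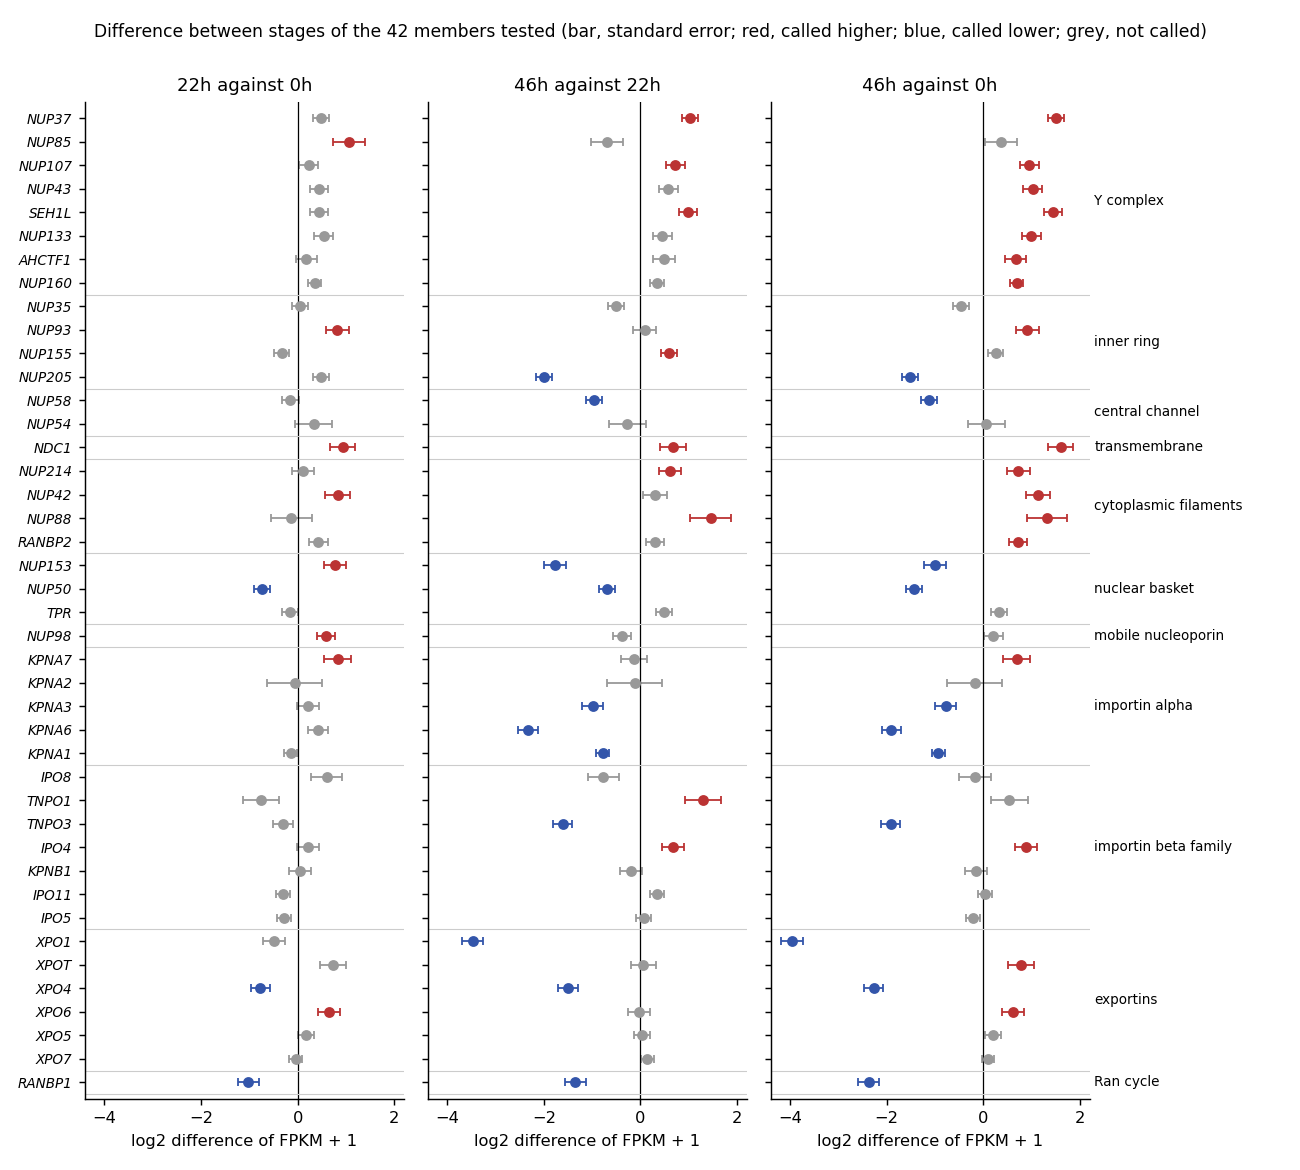
Log2 difference of FPKM + 1 between stages for each of the 42 members tested (points, estimate; bars, standard error), in 1 panel per comparison and grouped by role; red and blue points are members called higher and lower. Y complex and cytoplasmic filament genes lie to the right of 0 at 46h against 0h, and XPO1 lies farthest to the left at -3.96.

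The members were also counted in a pair of groups, whose contrast was not tested. Among the 23 nucleoporins tested, 13 were higher and 4 lower at 46h against 0h (56.5% and 17.4%, median log2 difference 0.69). Of the 18 transport receptors and adaptors tested, 4 were higher and 6 lower (22.2% and 33.3%, median -0.16). All genes tested stood at 16.8% higher and 39.1% lower with a median of -0.25, so the receptor shares lay near those of all genes. Without the pair of libraries that stood apart, 13 nucleoporins were higher and 4 lower (56.5% and 17.4%), and 3 receptors were higher and 7 lower (16.7% and 38.9%). All genes tested stood at 18.7% higher and 38.3% lower in that fit, so the receptor shares again lay near them. The 4 higher receptors became 2 without replicate 2 of 0h and 1 without replicate 3 of 46h. By the steps in time, 6 members were called only at 46h against 22h and 46h against 0h as higher (IPO4, NUP107, NUP214, NUP37, NUP88 and SEH1L), which is 14.3% of the members tested beside 6.93% of all genes tested. In those same comparisons 7 were called as lower (KPNA1, KPNA3, KPNA6, NUP205, NUP58, TNPO3 and XPO1), 16.7% beside 16.6%. NDC1 was called higher in all 3 comparisons (2.38% beside 0.955%), and NUP50, RANBP1 and XPO4 were called lower in all 3 (7.14% beside 11.6%). NUP153 was called in all 3 as well, higher at 22h and then lower. A further 10 members (IPO11, IPO5, IPO8, KPNA2, KPNB1, NUP35, NUP54, TPR, XPO5 and XPO7) were called in none, 23.8% beside 36.3%. That a member was called in one comparison and not in another was not itself tested.

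The Y complex forms the outer rings of the pore and also binds kinetochores in mitosis. The list used here may leave out some of its proteins. NUP98 was counted apart, as a mobile nucleoporin, and was not called at 46h against 0h (0.21, adjusted p = 0.36). The Y complex list had 8 members, all tested. Of these 7 were higher and 0 lower at 46h against 0h (median log2 difference 0.97), beside 16.8% and 39.1% of all genes. The counts were 7 and 0 without both libraries that stood apart, beside 18.7% and 38.3%. NUP37 was its most abundant member (chr5:82091439-82144463 in the RefSeq annotation of Sscrofa11.1). NUP37 measured 99.8, 118, 102 and 78.6 FPKM in the 4 libraries of 0h, 120.4, 161, 130.4 and 147 at 22h, and 311, 265, 256 and 300.3 at 46h. Each stage lay wholly above the one before it. The log2 difference of NUP37 was 1.51 (SE 0.163, adjusted p = 1.72e-06) at 46h against 0h and 1.02 (SE 0.163, adjusted p = 0.000146) at 46h against 22h, and 0.49 at 22h against 0h, which did not reach the fold threshold. SEH1L, a propeller-shaped scaffold protein shared with a nutrient-sensing complex, measured 36.7, 31.6, 31.8 and 26.0 FPKM at 0h, 35.6, 42.9, 42.5 and 52.4 at 22h, and 68.8, 76.1, 108 and 98.4 at 46h. Its 46h libraries were all above the others, and 22h overlapped 0h at the lowest 22h library. SEH1L was higher by 1.44 (SE 0.184, adjusted p = 1e-05) at 46h against 0h. The RefSeq record under this symbol is a transcript of 3906 bases on an almost intronless gene, so a copy of the gene may share its reads, and no position is given for it.

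The other members of the Y complex rose by smaller steps. NUP107 averaged 48.47 ± 13.3, 55.66 ± 7.57 and 91.48 ± 4.81 FPKM (SD, n = 4) at 0h, 22h and 46h, and was higher by 0.95 at 46h against 0h (SE 0.2, adjusted p = 0.000866). NUP43 and NUP133 were higher by 1.02 and 0.99 (adjusted p = 0.000341 and 0.000506), and NUP160 by 0.69 (adjusted p = 0.000592). None of the 4 had an overlap between its 0h and 46h libraries. AHCTF1, also called ELYS, which binds chromatin and starts pore assembly after division, was higher by 0.67 (adjusted p = 0.0157), a call lost without replicate 2 of 0h or replicate 1 of 46h (difference 0.54 to 0.75 over the libraries left out). NUP85 was the exception: it measured 109, 102, 81.0 and 70.8 FPKM at 0h, 86.2, 172, 283 and 303 at 22h, and 89.7, 123, 151 and 107 at 46h. Replicate 1 of 22h fell among the 0h libraries while replicates 2, 3 and 4 of 22h lay above all 0h and 46h libraries. NUP85 was called higher at 22h against 0h (1.07, SE 0.33, adjusted p = 0.0235) and was 0.37 apart at 46h against 0h (adjusted p = 0.347). The call was lost with no filter on low genes, with only the stages compared in the fit, and without replicate 3 of 0h or replicate 3 or 4 of 22h (difference 0.85 to 1.45 over the libraries left out).

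**Figure D2:**
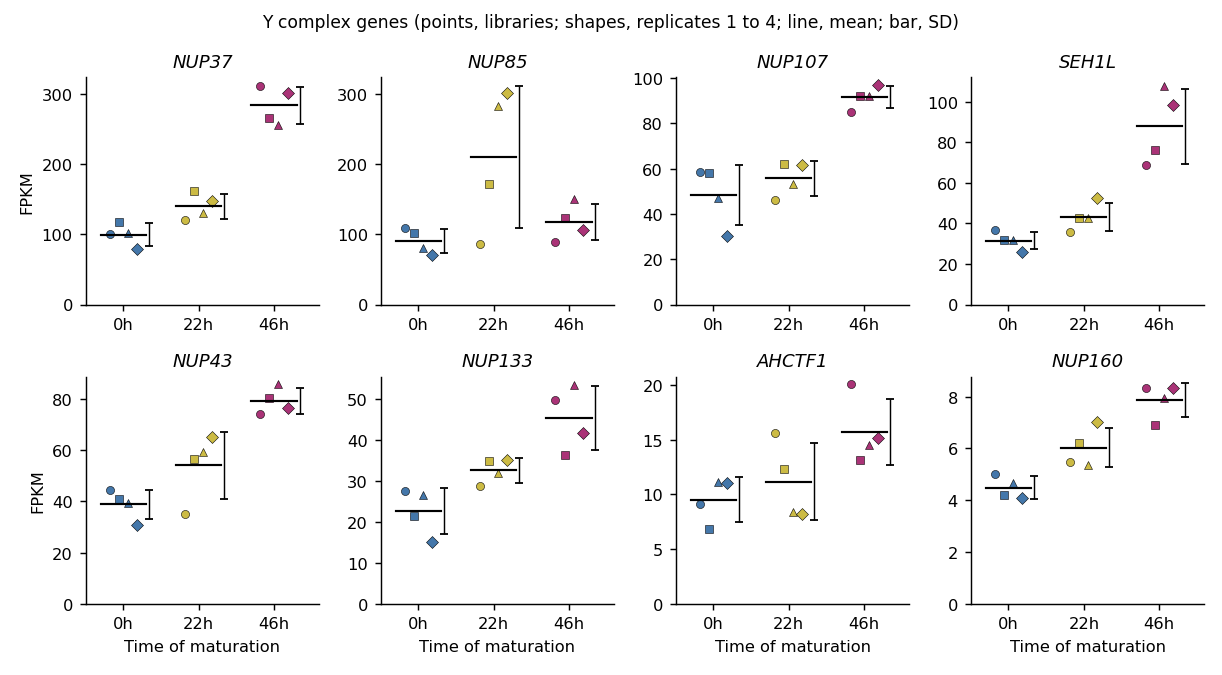
FPKM of the 8 Y complex genes in each library at 0h, 22h and 46h (points, libraries; shapes, replicate numbers; line, mean; bar, SD), each on its own axis from 0. In 7 panels the 46h mean is the highest, from 283.1 FPKM for NUP37 to 7.883 for NUP160, while NUP85 is highest at 22h with a mean of 211.

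NDC1, a membrane protein that anchors the pore in the nuclear envelope, rose at each step. It measured 107, 90.5, 75.3 and 37.1 FPKM at 0h, 112, 148, 138 and 159 at 22h, and 196, 254, 219 and 215 at 46h. No library of one stage overlapped another stage, and replicate 4 of 0h was the lowest. NDC1 (chr6:158458597-158515057) was higher by 0.93 at 22h against 0h (SE 0.263, adjusted p = 0.0156) and by 1.60 at 46h against 0h (SE 0.263, adjusted p = 0.000104). At 46h against 22h the difference was 0.67 (adjusted p = 0.0487), and this call was kept under 8 of 22 alternatives. It was lost with a pseudocount of 0.1, with no filter, with the replicate block, and under TPM with and without mitochondrially encoded genes. It was also lost without any one of the 22h or 46h libraries or without replicate 3 of 0h (difference 0.57 to 0.73). NUP210, the other large membrane nucleoporin, stayed at 0.06 to 0.24 FPKM, and NUP210L, its testis-type relative, at 0.00 to 0.19.

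The cytoplasmic filaments are where exported RNA-protein particles and receptors leave the channel. All 4 members that the symbol rule takes were higher at 46h against 0h, beside 16.8% of all genes. GLE1, AAAS and DDX19B, which the rule leaves out, were called lower there and are counted with the partner lists below. The 4 members of the rule were also higher without both libraries that stood apart, beside 18.7% of all genes. NUP214, the filament protein to which NUP88 binds, was the most abundant, with 68.6, 106, 90.0 and 92.6 FPKM at 0h, 116, 116, 95.6 and 64.0 at 22h, and 185, 146, 99.4 and 169.6 at 46h. Replicate 3 of 46h lay inside the range of 0h and of 22h. NUP214 was higher by 0.72 at 46h against 0h (SE 0.236, adjusted p = 0.0156), lost without replicate 1 of 0h or replicate 1 of 46h (difference 0.60 to 0.91). At 46h against 22h NUP214 was higher by 0.61 (adjusted p = 0.0441), lost under TPM, with no filter and with the replicate block. That call was also lost without replicate 3 of 0h, replicate 3 or 4 of 22h, or replicate 1, 2 or 4 of 46h (difference 0.42 to 0.80).

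NUP88 measured 36.5, 35.6, 18.5 and 9.65 FPKM at 0h, 9.03, 20.7, 28.5 and 29.7 at 22h, and 35.9, 69.0, 62.0 and 67.3 at 46h. Replicates 2, 3 and 4 of 46h were far above the rest and replicate 1 of 46h was just below the highest 0h library. It was higher by 1.45 at 46h against 22h (SE 0.419, adjusted p = 0.0105) and by 1.32 at 46h against 0h (SE 0.419, adjusted p = 0.013), and both calls held with each library left out. NUP42, which helps the helicase that strips export factors from messenger RNA, measured 81.7, 81.9, 55.3 and 40.5 FPKM at 0h, 70.5, 121, 123 and 147 at 22h, and 120.1, 154, 134 and 143 at 46h. Replicate 1 of 22h was again the low one, within the range of 0h. NUP42 was higher by 0.83 at 22h against 0h (adjusted p = 0.0229; lost with no filter, with only the stages compared, and without replicate 3 of 0h or replicate 2, 3 or 4 of 22h, difference 0.63 to 1.05) and by 1.13 at 46h against 0h (SE 0.254, adjusted p = 0.00139). RANBP2, a very large protein that binds Ran and attaches SUMO, averaged 11.46 ± 2.27, 15.61 ± 1.90 and 19.69 ± 4.60 FPKM (SD, n = 4) and was higher by 0.72 at 46h against 0h (adjusted p = 0.00459).

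On the nuclear face, NUP153 and NUP50 of the basket, both with phenylalanine-glycine repeats, were lower at 46h against 0h. NUP153 (chr7:13393542-13466577), which docks receptors at the basket, measured 20.1, 13.9, 22.2 and 15.1 FPKM at 0h, 38.8, 32.0, 25.5 and 27.6 at 22h, and 13.1, 6.87, 5.86 and 8.67 at 46h. The 22h libraries were all above and the 46h libraries all below those of 0h. The difference was 0.77 at 22h against 0h (SE 0.232, adjusted p = 0.0212), -1.77 at 46h against 22h (SE 0.232, adjusted p = 2.3e-05) and -1.0 at 46h against 0h (SE 0.232, adjusted p = 0.00178). The first of these was lost without replicate 2 of 0h, replicate 1 of 22h or replicate 2 of 22h (0.66 to 0.88) and at 0.59 without the pair of libraries that stood apart, and the last was lost under quantile normalization at -0.38. NUP50, a partner of NUP153 that helps release cargo from importin alpha, measured 21.7, 18.4, 18.2 and 18.2 FPKM at 0h, 11.7, 8.14, 13.9 and 11.3 at 22h, and 5.97, 6.29, 7.5 and 6.15 at 46h. No stage overlapped another. NUP50 was lower in each comparison, with -0.74 (adjusted p = 0.00412), -0.69 (adjusted p = 0.00315; lost under median-of-ratios scaling and quantile normalization) and -1.43 (SE 0.165, adjusted p = 3.29e-06) at 22h against 0h, 46h against 22h and 46h against 0h. TPR, the long coiled-coil protein of the basket, averaged 7.308, 6.338 and 9.25 FPKM and was called in no comparison (0.32 at 46h against 0h, adjusted p = 0.104).

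Inner ring genes, which join the outer rings to the membrane and the channel, went in different directions. NUP35 was the most abundant, with 215, 253, 167 and 181 FPKM at 0h, 201, 239, 179.9 and 219.6 at 22h, and 161, 139, 135 and 153 at 46h. Every 46h library was below every earlier one, yet the difference of -0.46 at 46h against 0h (adjusted p = 0.0259) was under the fold threshold. NUP205 (chr18:13674301-13777773) measured 6.45, 3.99, 6.30 and 7.03 FPKM at 0h, 8.73, 8.70, 8.81 and 7.79 at 22h, and 1.64, 1.54, 1.11 and 1.28 at 46h. Its stages did not overlap, with 22h the highest. NUP205 was lower, with -1.99 at 46h against 22h (SE 0.166, adjusted p = 2.33e-07) and -1.52 at 46h against 0h (SE 0.166, adjusted p = 1.88e-06), while 0.48 at 22h against 0h did not reach the fold threshold. NUP93, which binds NUP205, went the other way: its means were 9.385, 17.22 and 18.91 FPKM, and it was higher by 0.82 at 22h against 0h (adjusted p = 0.0161) and 0.91 at 46h against 0h (adjusted p = 0.00352). NUP155 averaged 10.02, 7.735 and 12.19 FPKM and was higher by 0.59 at 46h against 22h (adjusted p = 0.00664), a call lost under TPM and without replicate 1 of 22h or replicate 1, 3 or 4 of 46h (difference 0.53 to 0.69). NUP188, the paralog of NUP205, was at 0.05 to 0.84 FPKM.

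Of the central channel proteins, whose repeats form the selective barrier, NUP58 was lower at 46h. It measured 18.5, 17.9, 16.4 and 15.9 FPKM at 0h, 13.9, 12, 17.7 and 18.5 at 22h, and 7.03, 6.64, 9.37 and 6.72 at 46h. The 0h and 22h libraries overlapped and all 46h libraries were below both. NUP58 was lower, with -1.12 at 46h against 0h (SE 0.169, adjusted p = 4.76e-05) and -0.96 at 46h against 22h (SE 0.169, adjusted p = 0.000318), both lost under quantile normalization (-0.48 and -0.46). NUP54, its partner, averaged 7.995, 9.332 and 7.418 FPKM and was called in no comparison. NUP62, the third protein of the channel, and NUP62CL were listed at 0 in all 12 libraries, which in a file without counts may be a failed estimate. NUP98, a mobile nucleoporin with the same repeats, measured 2.18, 1.57, 2.65 and 3.53 FPKM at 0h, 4.78, 3.48, 4.68 and 3.66 at 22h, and 2.66, 2.6, 3.95 and 2.67 at 46h. The lowest 22h library was just under the highest 0h library. NUP98 was higher by 0.59 at 22h against 0h (SE 0.19, adjusted p = 0.0299), a call lost under median-of-ratios scaling, with no filter, with only the stages compared, and without replicate 1 or 2 of 0h or replicate 1 or 3 of 22h (difference 0.45 to 0.72).

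**Figure D3:**
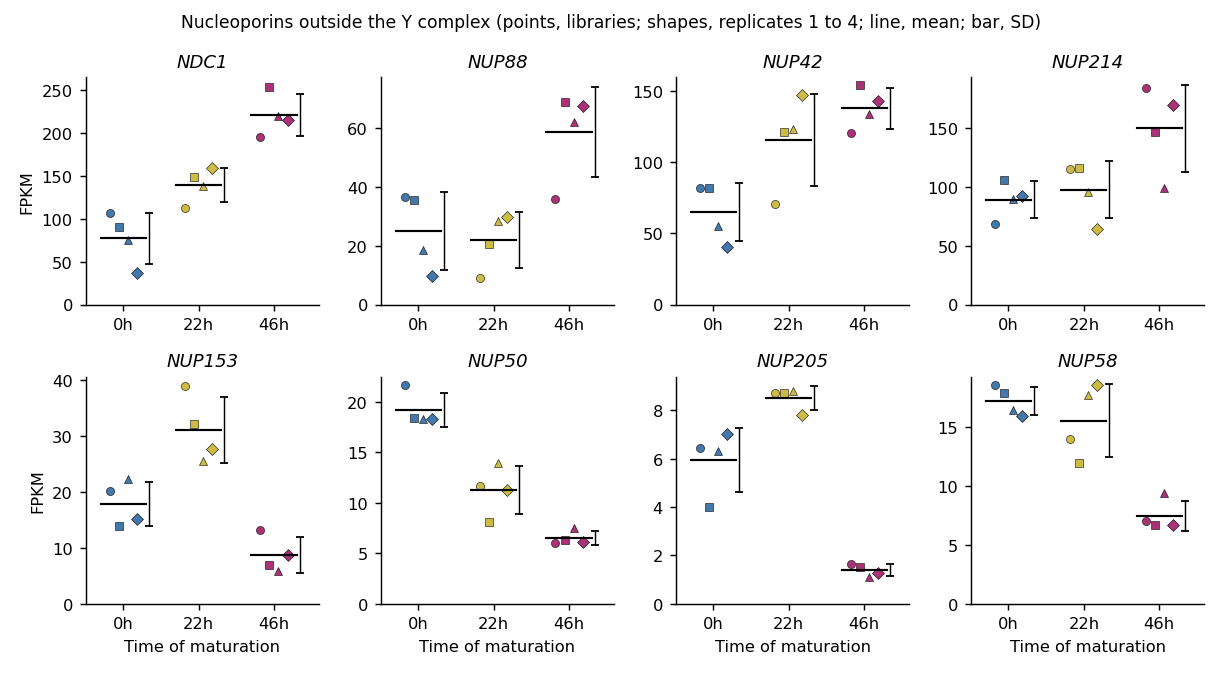
FPKM of 8 nucleoporins outside the Y complex in each library at 0h, 22h and 46h (points, libraries; shapes, replicate numbers; line, mean; bar, SD), each on its own axis from 0. NDC1, NUP88, NUP42 and NUP214 in the upper row have their highest mean at 46h, and NUP153, NUP50, NUP205 and NUP58 in the lower row have their lowest mean there.

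Most of the summed importin alpha FPKM in each library came from 1 gene. KPNA7, the importin alpha known from oocytes and early embryos (ENSSSCG00000007607, chr3:6167382-6201282), measured 4534, 3614, 3516 and 2630.2 FPKM at 0h, 3612, 5556, 8892 and 8396 at 22h, and 4440.0, 6935, 6624 and 5052 at 46h. The stages overlapped, with replicate 4 of 0h the lowest of all and replicate 1 of 22h inside the 0h range. KPNA7 ranked between place 11 and place 41 among all genes of a library and made up 0.336% to 1.26% of total FPKM. Its share of the summed FPKM of all importin alpha genes, a ratio within a library that a constant factor per library does not change, ranged from 73.4% to 92.4% in the 0h libraries, from 88.4% to 92.1% in those of 22h and from 89.6% to 93% in those of 46h, with means of 82.4%, 90.4% and 91.2%. The highest share at 0h was that of replicate 4, the library that stood apart, and without it the 0h mean was 79%. KPNA7 was called higher by 0.83 at 22h against 0h (SE 0.274, adjusted p = 0.0335) and by 0.69 at 46h against 0h (SE 0.274, adjusted p = 0.0402), and these calls were kept under 11 and 12 of 22 alternatives. Both were lost under quantile normalization and TPM, with no filter and with the replicate block (the first also with only the stages compared). They were also lost without replicate 2, 3 or 4 of 0h or, for the later stage, replicate 2, 3 or 4 (difference 0.65 to 1.09 at 22h and 0.55 to 0.81 at 46h). Under quantile normalization and TPM the differences were 0.83 and 0.81 at 22h against 0h, and 0.44 and 0.59 at 46h against 0h.

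KPNA2, the importin alpha of dividing cells, had the largest standard error of the tested members, 0.564 on the log2 scale. It measured 1095, 1262, 580.4 and 141 FPKM at 0h, 241, 641, 694 and 883 at 22h, and 415, 617, 474 and 562 at 46h. The low values were again replicate 4 of 0h and replicate 1 of 22h, and no comparison was called (adjusted p = 0.795 to 0.938). With single libraries left out, the difference at 46h against 0h lay between -0.86 and 0.19 and was not called. Without both libraries that stood apart, KPNA2 was called lower at 46h against 0h. It was the receptor or adaptor by which the lower count went from 6 to 7.

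The remaining tested importin alpha genes were lower at 46h. KPNA6 (chr6:88611128-88656281) measured 25.7, 13.8, 26.1 and 27.7 FPKM at 0h, 36.0, 31.2, 25.6 and 30 at 22h, and 5.53, 5.80, 5.27 and 4.69 at 46h. All 46h libraries were below all earlier ones, and the difference was -2.32 at 46h against 22h (SE 0.204, adjusted p = 4.13e-07) and -1.90 at 46h against 0h (SE 0.204, adjusted p = 1.63e-06). KPNA3 measured 49.5, 33.2, 49.5 and 44.7 FPKM at 0h, 58.2, 57.7, 42.6 and 45.7 at 22h, and 36.7, 27.8, 17.1 and 22.2 at 46h. Replicate 1 of 46h overlapped the lowest 0h library. KPNA3 was lower, with -0.99 at 46h against 22h (adjusted p = 0.00223) and -0.78 at 46h against 0h (adjusted p = 0.007), the first lost under quantile normalization (-0.56) and the second under both median-of-ratios scaling and quantile normalization (-0.23 in the latter). KPNA1 measured 2.01, 1.33, 1.82 and 1.71 FPKM at 0h, 1.85, 1.32, 1.27 and 1.40 at 22h, and 0.48, 0.36, 0.42 and 0.43 at 46h. Every 46h library was under 0.5 FPKM and did not overlap the earlier stages. KPNA1 was lower, with -0.93 at 46h against 0h (SE 0.137, adjusted p = 3.78e-05) and -0.78 at 46h against 22h (adjusted p = 0.000304), both lost under quantile normalization. KPNA4 and KPNA5 stayed at 0.05 to 0.34 and 0.13 to 0.55 FPKM.

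Importin beta receptors, which bind cargo directly or through an adaptor, had 10 members, of which 7 were tested. Of these 1 was higher (IPO4) and 1 lower (TNPO3) at 46h against 0h, which is 14.3% each way beside 16.8% and 39.1% of all genes. The counts were the same without both libraries that stood apart, beside 18.7% and 38.3% of all genes. Without replicate 2 of 0h, 2 were higher. IPO8, a receptor for Argonaute and SMAD proteins and the most abundant, measured 34.0, 24.6, 45.8 and 66.8 FPKM at 0h, 100.4, 68.6, 42.9 and 47.6 at 22h, and 53.1, 26.9, 37.2 and 29.7 at 46h. Its stages overlapped, replicate 1 was the highest at 22h and at 46h, and no comparison was called. TNPO1, which imports RNA-binding proteins with proline-tyrosine signals, measured 28.2, 55.3, 24.1 and 10.7 FPKM at 0h, 13.6, 19.2, 13.7 and 12.5 at 22h, and 37.7, 39.8, 23.1 and 55.6 at 46h. The 46h libraries were all above those of 22h and within or near the wide range of 0h. TNPO1 was higher by 1.3 at 46h against 22h (SE 0.377, adjusted p = 0.0107), with 0.54 at 46h against 0h (adjusted p = 0.228). TNPO3, the receptor of serine-arginine-rich splicing factors, fell from means of 9.047 ± 2.54 and 7.093 ± 1.85 to 1.61 ± 0.269 FPKM (SD, n = 4), with -1.92 at 46h against 0h (SE 0.201, adjusted p = 1.23e-06) and -1.61 at 46h against 22h (SE 0.201, adjusted p = 1.38e-05). IPO4, an importer of histones and ribosomal proteins, averaged 3.203, 3.998 and 6.81 FPKM and was higher by 0.88 at 46h against 0h (adjusted p = 0.00326). At 46h against 22h IPO4 was higher by 0.67 (adjusted p = 0.0232), a call lost under TPM, with no filter, and without replicate 1 or 2 of 22h or replicate 3 of 46h (difference 0.48 to 0.80). KPNB1 averaged 1.868, 1.823 and 1.452 FPKM, IPO11 1.647, 1.145 and 1.722, and IPO5 1.403, 0.9875 and 1.085, and none of these was called.

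XPO1 (ENSSSCG00000028228), the general exportin for proteins with leucine-rich export signals and for several RNA-protein particles, had the largest difference of all members. Its gene lies at chr3:80255016-80300260 in the RefSeq annotation. XPO1 measured 40.8, 47.5, 40.6 and 22.6 FPKM at 0h, 33.9, 25.6, 22.4 and 22.3 at 22h, and 1.85, 1.13, 1.22 and 1.51 at 46h. The 0h and 22h libraries overlapped, while every 46h library was under 2 FPKM and every earlier one above 22 FPKM. The log2 difference was -3.47 at 46h against 22h (SE 0.221, adjusted p = 1.55e-08) and -3.96 at 46h against 0h (SE 0.221, adjusted p = 1.94e-09), and it lay between -4.19 and -3.33 at 46h against 0h under the other scalings and with each library left out. At 22h against 0h it was -0.49 (adjusted p = 0.103).

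XPO4, which exports among others the translation factor eIF5A, fell at each step. It measured 5.61, 3.85, 5.52 and 5.0 FPKM at 0h, 1.61, 2.15, 3.94 and 2.63 at 22h, and 0.17, 0.37, 0.39 and 0.03 at 46h. Only replicate 3 of 22h overlapped the 0h range, and all 46h libraries were under 0.4 FPKM. XPO4 was lower, with -0.77 at 22h against 0h (SE 0.198, adjusted p = 0.00912; not called with a pseudocount of 0.1), -1.50 at 46h against 22h (SE 0.198, adjusted p = 2.4e-05) and -2.27 at 46h against 0h (SE 0.198, adjusted p = 1.83e-07). The remaining exportins did not follow. XPOT, the exportin of transfer RNA, averaged 8.115, 13.64 and 14.5 FPKM and was higher by 0.78 at 46h against 0h (adjusted p = 0.0185; lost without replicate 2 of 0h or replicate 1 or 3 of 46h, difference 0.55 to 0.95). XPO6, which keeps actin out of the nucleus, averaged 0.91, 2.038 and 2.067 FPKM and was higher by 0.65 at 22h against 0h (adjusted p = 0.0416) and 0.62 at 46h against 0h (adjusted p = 0.0275). These XPO6 calls were lost with no filter and rested on single libraries, with differences of 0.51 to 0.75 and 0.39 to 0.76 over the libraries left out: the first was lost without any of replicates 1, 2 and 3 of 0h, replicates 2, 3 and 4 of 22h or replicate 1 of 46h, and the second without replicate 2 of 0h or replicate 3 of 46h. XPO5, the exportin of microRNA precursors, averaged 1.203, 1.472 and 1.53 FPKM, XPO7 averaged 1.252, 1.188 and 1.413, and neither was called.

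In the Ran cycle, RANBP1, which helps the GTPase-activating protein act on Ran-GTP, was the only member tested. RANBP1 (chr14:51494258-51500420) measured 40.5, 37.0, 54.5 and 69.3 FPKM at 0h, 30.2, 18.9, 25.5 and 21.2 at 22h, and 10.8, 6.77, 8.80 and 8.71 at 46h. The stages did not overlap and each was below the one before. RANBP1 was lower, with -1.02 at 22h against 0h (SE 0.218, adjusted p = 0.00308), -1.35 at 46h against 22h (SE 0.218, adjusted p = 0.000157) and -2.37 at 46h against 0h (SE 0.218, adjusted p = 3.26e-07). RANGAP1, the GTPase-activating protein itself, stayed at 0.00 to 1.29 FPKM, and RCC1, the exchange factor on chromatin, at 0.00 to 0.19.

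**Figure D4:**
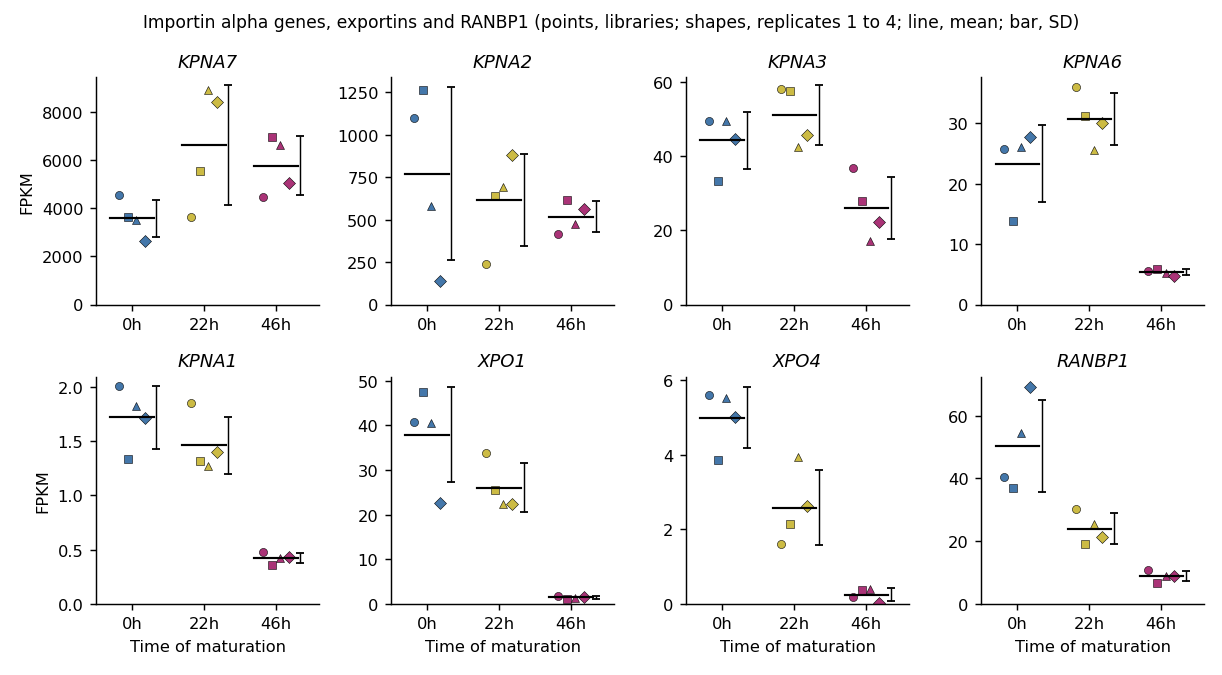
FPKM of the 5 tested importin alpha genes, the exportins XPO1 and XPO4, and RANBP1 in each library at 0h, 22h and 46h (points, libraries; shapes, replicate numbers; line, mean; bar, SD), each on its own axis from 0. KPNA7 lies between 2630.2 and 8892 FPKM and overlaps between stages, whereas KPNA6, KPNA1, XPO1, XPO4 and RANBP1 have all 4 libraries of 46h below all earlier ones.

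For the 12 members with a mean under 1 FPKM the comparison was an exact two-sided permutation test of 4 against 4 libraries, in which 70 arrangements allow no p below 0.0286. Both members listed at 0 got no test. Among 30 tests of the other 10 members, 3 had that smallest p: IPO9, an importer of histones, at 46h against 22h and at 46h against 0h (means of 1.32, 0.615 and 0.105 FPKM), and RANGAP1 at 46h against 0h (0.54, 0.175 and 0.0325 FPKM). None passed after Benjamini-Hochberg adjustment over the 30 tests, the smallest adjusted p of this exact test being 0.286. IPO7 and TNPO2 lay at 0.32 to 1.34 and 0.15 to 0.54 FPKM.

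Of the scalings tried, none turned the direction of a called member, but the share of higher calls moved. Of members called at 46h against 22h, 45% were higher as deposited, 60% after median-of-ratios scaling, 72% after quantile normalization, 27.8% as TPM and 42.1% as TPM without mitochondrially encoded genes. Over all genes the shares moved alike, at 23.3%, 42.1%, 59.5%, 17.2% and 23%. At 46h against 0h the shares were 60.7%, 64.3%, 77.4%, 59.3% and 60.7% for the members, and 30.1%, 44.2%, 61.7%, 25.6% and 33.9% for all genes. The median of all genes at 46h against 0h moved from -0.25 to 0.00 after median-of-ratios scaling and 0.37 after quantile normalization, and that of the members from 0.23 to 0.51 and 0.84. At every scaling and in every comparison the median of the members was above that of all genes. At 46h against 0h, 23 of 28 called members kept their call under all 4 other scalings, and the other 5 were KPNA7, KPNA3, KPNA1, NUP153 and NUP58. All 7 Y complex genes and all 4 cytoplasmic filament genes called higher there were among those that kept it.

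**Figure D5:**
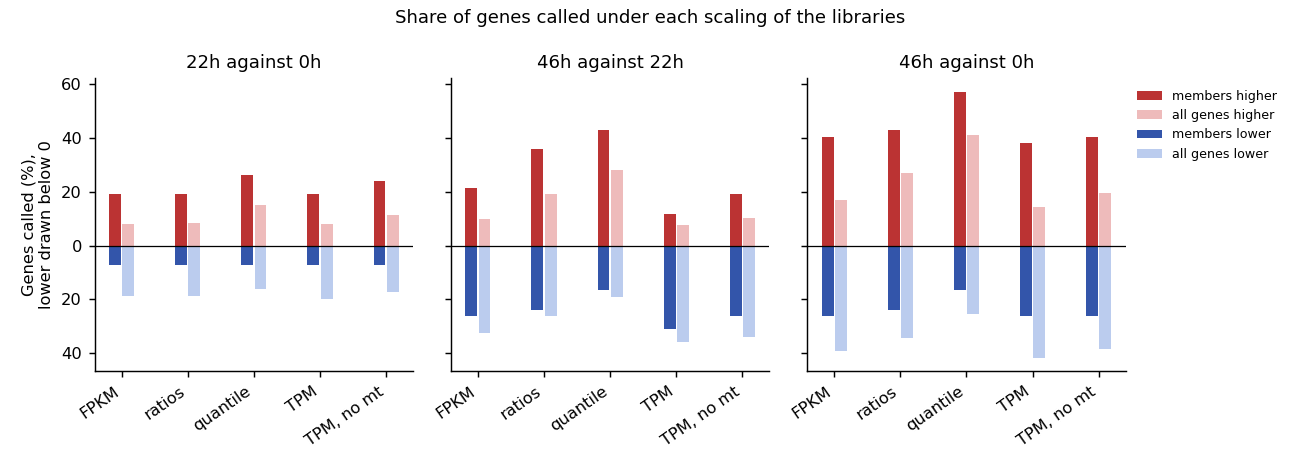
Share of the 42 members (dark bars) and of all genes tested (pale bars) called higher (above 0) and lower (drawn below 0) under FPKM as deposited and 4 other scalings (ratios, median-of-ratios; mt, mitochondrially encoded genes), in 1 panel per comparison. At 46h against 0h the members called higher are 40.5% as deposited against 16.8% of all genes, and their share exceeds that of all genes under each scaling.

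Genes that work with the pore and its receptors but lie outside the symbol rule were counted from 3 further lists. Of 13 tested transport partners, 3 were higher and 7 lower at 46h against 0h (23.1% and 53.8%, beside 16.8% and 39.1% of all genes). RAE1, an mRNA export factor that binds NUP98, was higher in all 3 comparisons, by 0.82, 0.74 and 1.56 at 22h against 0h, 46h against 22h and 46h against 0h (adjusted p = 0.0119, 0.012 and 2.38e-05), with a mean of 382 FPKM at 0h. RANBP17, a relative of the exportins, had the largest rise at 46h against 0h, 1.57 (adjusted p = 7.94e-07), and NUTF2, which returns Ran to the nucleus, the largest at 46h against 22h, 1.09 (adjusted p = 1.87e-05). SNUPN, the adaptor for import of spliceosomal particles, had the largest fall at 22h against 0h, -1.09 (adjusted p = 0.00767), as well as at 46h against 0h, -2.54 (adjusted p = 1.46e-06). AAAS, a propeller protein of the pore, had the largest fall at 46h against 22h, -2.27 (adjusted p = 0.000177).

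Among 13 tested mRNA export genes, 0 were higher and 5 lower at 22h against 0h (38.5% lower, beside 7.84% higher and 18.9% lower of all genes). Later, at 46h against 0h, 3 were higher and 6 lower (23.1% and 46.2%, beside 16.8% and 39.1%). DDX39B, a helicase that loads export factors, had the largest fall in each comparison, with -1.69, -2.47 and -4.17 at 22h against 0h, 46h against 22h and 46h against 0h (adjusted p = 0.000649, 7.44e-06 and 1.68e-08). THOC2 and THOC7, of the complex that couples transcription to export, had the largest rises at 46h against 22h (THOC2, 1.16) and at 46h against 0h (THOC7, 1.16). Of 10 tested genes of the lamina and inner nuclear membrane, 2 were higher and 3 lower at 46h against 0h (20% and 30%, beside 16.8% and 39.1% of all genes), TOR1AIP1 with the largest rise (0.85, adjusted p = 0.000213) and TOR1A, an ATPase of the envelope lumen, with the largest fall (-2.89, adjusted p = 1.43e-06). TOR1A also had the largest fall at 22h against 0h (-2.63, adjusted p = 4.5e-05) and TMPO, a lamin-binding protein, was the only one called higher there (0.87, adjusted p = 0.00314). LEMD3 fell the most of this list at 46h against 22h (-2.44, adjusted p = 6.43e-08) and BANF1 was the only one called higher (0.62, adjusted p = 0.0154), a call lost under TPM.

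The 3' ends of the members were read from RefSeq transcripts of Sscrofa11.1, matched by symbol, because polyadenylation in the oocyte cytoplasm is known to act through short elements there. The last 100 bases were searched on the sense strand for a cytoplasmic polyadenylation element, spelled TTTTAT or TTTTAAT, and for the hexamer of the poly(A) signal, AATAAA or ATTAAA. The element was found in 5 of 35 members tested that have such a window (14.3%), namely KPNB1, NUP160, NUP214, NUP98 and XPOT, against 22.9% of 5322 genes tested. It was in 3 of 15 members called higher at 46h against 0h (20%) and 0 of 9 called lower, against 30.8% of all genes called higher and 16.5% of all called lower. The hexamer was found in 28 of 35 members (80%) and 77.5% of all genes. These are matches of letters in a window and are given as a description.

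Stretches of 30 bases around these letters are printed for the 3 members called higher at 46h that hold the element. Beside them are printed those of KPNA7, the most abundant member, and of XPO1 and RANBP1. XPO1 and RANBP1 had the lowest log2 differences of the members at 46h against 0h in log2(FPKM + 1) as deposited. With a pseudocount of 0.1, and under median-of-ratios scaling and both forms of TPM, XPO4 was lower than RANBP1. Capitals mark the element and the hexamer, and U is written as T. The stretches lie at chr2:14891528-14891557 (NUP160, plus strand), chr1:271196493-271196522 (NUP214, plus), chr5:28875287-28875316 (XPOT, plus), chr3:6167384-6167413 (KPNA7, minus), chr3:80300231-80300260 (XPO1, plus) and chr14:51500391-51500420 (RANBP1, plus), all in 3' untranslated exons.
NUP160: ttaaTTTTATtctgtatATTAAAacttatc
NUP214: ttgtTTTTAATtctttaattcttttttaaa
XPOT: cattTTTTATaaaaacaaaagcaAATAAAt
KPNA7: tgttAATAAAatgttccacattttcacctt
XPO1: aaaaagcaaAATAAActtggtttacattta
RANBP1: atagtgAATAAAtaacacatttgaaacctg
The element of NUP160 begins 36 bases before the end of the transcript and that of XPOT 46, counting the last base as 1, each with a hexamer closer to the end. In NUP214 the element begins 50 and the hexamer 25 bases before the end of the transcript, so that only the first base of the hexamer falls in the printed stretch and it is not in capitals. The NUP214 transcript read here ends short of the annotated end of the gene, which lies at chr1:271103838-271210292. In KPNA7, XPO1 and RANBP1 the hexamer begins 28, 21 and 24 bases before the end and no element was in the last 100 bases.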

How the data were processed

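Denuded oocytes were profiled in 12 libraries (4 per stage). The deposited files give FPKM per Ensembl gene, made by the authors with FastQC 0.11.9, Trim Galore 0.6.4, STAR 2.7.6a on Sscrofa11 and RSEM 1.3.3, per the study's methods. The authors' own gene test used counts, which were not at hand. FPKM carries no counts, so no counting interval is given.

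Here log2(FPKM + 1) was fitted with limma 3.58.1 in R 4.3.3 (eBayes with trend, stage as only factor, 12 libraries) for the 7013 genes averaging 1 FPKM or more, two-sided, with Benjamini-Hochberg adjustment over all of them; a call needed adjusted p under 0.05 and fold over 1.5. Fold changes are on the log2(FPKM + 1) scale, which understates those of low genes. The fit was tested on simulated data. Members under the filter had an exact permutation test. The members and gene lists were chosen with earlier results of these data known.

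Values in every library are given for the most abundant member of each role, every tested importin alpha and Ran-cycle member, and the 3 largest rises and falls called per comparison; of other lists, the largest rise and fall per comparison. Symbols came from the gene name table supplied with the reference. RefSeq positions (52 members) and 3' ends (51 members) were matched by symbol on Sscrofa11.1, not by the build of the files, which hold no coordinates. The transcript used per gene, one with a 3' untranslated region of at least 100 bases where there is one, was chosen after a first rule had been seen to give KPNA7 a very short one. Alternatives were a pseudocount of 0.1, no filter or a mean of at least 5 FPKM, 4 scalings, only the stages compared, eBayes without trend, a replicate block, no fold threshold and each library left out. Python 3.11.15, pandas 2.3.3, scipy 1.17.1 and matplotlib 3.10.9 were used.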

Additional observations from a re-analysis of the deposited data

Results flagged for a closer look

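In 8 of 126 groups of 4 libraries (42 members at 3 stages), 1 library lay far from the other 3 of its stage by Dixon's ratio of gap to range, and chance alone gives about 1 group in 20. At 0h these were NUP50 in replicate 1 (21.67 FPKM) and KPNA6 in replicate 2 (13.79 FPKM). At 22h they were NUP155 in replicate 1 (6.71 FPKM) and NUP205 in replicate 4 (7.79 FPKM). At 46h they were NUP155 in replicate 2 (9.62 FPKM), NUP58 in replicate 3 (9.37 FPKM), NUP88 in replicate 1 (35.92 FPKM) and NUP98 in replicate 3 (3.95 FPKM). Of the 8, the values of NUP50, NUP58 and NUP98 were above and the other 5 below the rest of their stage. Of the libraries that stood apart, replicate 4 of 0h gave 0 of the 8 and replicate 1 of 22h gave the NUP155 value of that stage.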

How the results depend on the processing

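No called difference of a member changed direction under any alternative run, and 35 of 59 calls of a member in a comparison were kept under every alternative that could test them, other than the removal of both libraries that stood apart. At 22h against 0h the 8 higher members became 3 with no filter and 4 with only the stages compared, and 3 to 9 with single libraries left out. The 3 lower members became 5 without the pair of libraries that stood apart, and 3 to 5 with single libraries left out. At 46h against 22h the 9 higher members became 15 after median-of-ratios scaling, 18 after quantile normalization and 5 as TPM (all genes higher went from 9.87% to 19.2%, 28.1% and 7.49%). The 11 lower members there became 7 after quantile normalization (all genes lower went from 32.6% to 19.1%). At 46h against 0h the 11 lower members became 7 after quantile normalization (all genes lower went from 39.1% to 25.5%). In the same comparison the 4 lower nucleoporins became 2 after quantile normalization, against the same 25.5% of all genes. The 4 higher receptors became 2 with no filter and 2 with a mean of at least 5 FPKM, where IPO4 and XPO6 were not tested (means 4.67 and 1.672 FPKM). They became 7 after quantile normalization (all genes higher went from 16.8% to 41% there), and 1 to 4 with single libraries left out. The 1 higher gene of the importin beta family, IPO4, was not tested with a mean of at least 5 FPKM, which left 0. The count became 3 after quantile normalization, against the same 41% of all genes, and 1 to 2 with single libraries left out. The 1 lower gene became 2 with no filter. Apart from the members that the filter at 5 FPKM removed, the cause of these shifts was not tested. The deviations of same-numbered replicates from their stage means correlated at -0.466 to 0.082 between 0h and 22h, -0.281 to 0.084 between 0h and 46h and 0.009 to 0.381 between 22h and 46h (above 0.1 in 3 of 4 pairs). Since no pair of stages had every value above 0.1, the numbers were not taken to pair the samples. With the replicate block 7, 7 and 16 members were higher at 22h against 0h, 46h against 22h and 46h against 0h. Those lower were 3, 11 and 11. The 4 calls lost were KPNA7 at 22h and at 46h against 0h, and NDC1 and NUP214 at 46h against 22h. Shares of all genes are given for the scalings and, at 46h against 0h, for the fit without both libraries that stood apart. Member counts under the other alternatives stand without such a share and are not read as particular to the members. How far the unknown depth limits the members near or under 1 FPKM was not measured.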
